A study of Mus musculus with 4 samples.

Results

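Genes of the coats, cargo receptors, tethers and small GTPases that move proteins between the endoplasmic reticulum (ER), the Golgi and the cell surface were followed at their translation initiation sites. Members were taken by gene symbol: the COPII proteins (Sec13, Sec16, Sec23, Sec24, Sec31, Sar1), Sec22, the COPI subunits, the p24 family (Tmed), Surf4, TRAPP, COG and golgin genes, ADP-ribosylation factors (Arf), the adaptor protein (AP) subunits and clathrin. The table of 6352 transcripts held 74 of them, with 1 transcript for each gene. A mean of at least 5 RPM over the libraries was reached by 41 of the 74, and by 2314 of all transcripts. Another 33 members were below it, and of these, whose means reached at most 4.54 RPM, Cog6, Golga3 and Tmed5 had 0 reads in every library. Golga7b matches the golgin name but is a palmitoylation cofactor of another family, and was kept as a member by its name. RefSeq lists 31 further genes with such names that were not analysed here.

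Ribosome-protected footprints were sequenced from primary cultured cortical neurons of mice, treated with harringtonine at 5 µg/ml for 3 min. Harringtonine stops ribosomes shortly after initiation, so footprints pile up at start codons. The study used it to compare initiation between Ltn1 KO and WT neurons. The 4 libraries hold footprints only, without RNA levels beside them. Initiation and transcript level therefore cannot be told apart here, and neither was tested as the source of a difference. LTN1 is the ubiquitin ligase that marks unfinished proteins on stalled ribosomes for degradation, and TTC3 is another ubiquitin ligase, whose knockdown was combined with the genotype. The 4 libraries were KO SC (Ltn1 KO, titled Ttc3 RNAi), WT SC (WT, titled Ttc3 RNAi), KO TTC (Ltn1 KO, titled control RNAi with a scrambled sequence) and WT TTC (WT, titled control RNAi). The codes in the descriptions spell the opposite RNAi, so the libraries are called by genotype and code, as labelled. Age of the animals, the number pooled, and the deleted part of Ltn1 are not given in the sources used here. Each condition was 1 library, so tests and intervals cover counting error only and compare libraries, not conditions.

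Ltn1 itself had 37 reads in KO SC against 10 in WT SC, and 0 reads in KO TTC against 2 in WT TTC. The library labelled KO SC thus held the most Ltn1 footprints, an excess over WT SC that passed the exact test (adjusted p = 0.0300). Whether the counted site lies in the deleted part is unknown, so these reads do not settle the label of KO SC. Ttc3 had 2 reads in KO SC, 3 in WT SC and 0 in both TTC libraries, too few to compare. Library totals were between 1460425 and 3655827 reads, of which 6.06% to 6.85% fell on the listed sites. A count of 3 reads, set in place of 0 reads where a fold is given, was worth 0.821 RPM in the deepest library, KO TTC. It was worth 2.05 RPM in the shallowest, WT TTC. Such folds leave out the counting error of the other library. Neuronal markers (9 of 9 listed) summed to 1904 RPM for KO SC, 1700 RPM for WT SC, 1711 RPM for KO TTC and 1669 RPM for WT TTC. No marker of microglia (0 of 7) was in the table.

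Secretory and membrane proteins leave the ER in vesicles coated by COPII, in which the GTPase SAR1 recruits SEC23 and SEC24, and SEC13 with SEC31 builds the outer cage. COPI, recruited by ARF1-type GTPases, carries receptors and escaped ER residents back. The p24 proteins (TMED) and SURF4 span the membrane and cycle between both compartments as cargo receptors, TRAPP and COG tether arriving vesicles, and AP complexes with clathrin sort cargo at the Golgi, endosomes and plasma membrane. In neurons this route supplies channels, receptors and membrane to dendrites and axons, and clathrin with AP2 retrieves synaptic vesicle membrane.

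RefSeq promoter windows of GRCm38.p6 were at hand for 65 of the 74 members, in 73 windows of 250 bases before and 50 bases after an annotated transcript start. The first ATG after the start lay inside 20 of these windows, from 19 members. Stretches around it are shown for Cope, Tmed4 and Tmed9, whose footprints are described next, and for the abundant Copz1, with the ATG in capitals. Whether the reads were counted at these ATGs is not given in the sources used here.
Cope: tagaggtgcggtgacATGgctcctc
Tmed4: caaggttgaggcgcaATGgcaggtgttggg
Tmed9: ggcaggtggggcaagATGgctgcggt
Copz1: gcagctacgggcaagATGgaggcgctgat
They lie at chr8:70302792-70302816 (plus strand), chr11:6274819-6274848 (minus), chr13:55593159-55593184 (plus) and chr15:103272909-103272937 (plus). All of these 4 have a purine 3 bases before the ATG and a G just after it, the letters favoured around mammalian start codons, and so do 11 of the 20 stretches. Cope, Tmed4 and Tmed9, which were low in the Ltn1 KO libraries, shared these letters with Copz1, which was not.

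Among the cargo receptors, Surf4 fell in the Ltn1 KO library of both pairs and was the only one of the 41 members past 2-fold in both, while Tmed4 and Tmed9 fell in the TTC pair. SURF4 is an ER cargo receptor that exports soluble proteins. Surf4 had 2.24 RPM for KO SC against 9.06 RPM for WT SC (6 and 19 reads), and 7.39 RPM for KO TTC against 23.97 RPM for WT TTC (27 and 35 reads). It was low in both Ltn1 KO libraries and, within each genotype, lower in SC than in TTC. The Ltn1 KO library was 4.04-fold lower within the SC pair and 3.24-fold lower within the TTC pair. Both differences passed a two-sided exact binomial test of the recovered reads, adjusted over all transcripts by the Benjamini-Hochberg method (adjusted p = 0.0305 and 0.000448). Among all transcripts at this level, 0.908% were past 2-fold lower in both pairs and 0.259% past 2-fold higher in both. On the log2(RPM + 1) scale used for all differences here, Surf4 differed by -1.63 between KO SC and WT SC and by -1.57 between KO TTC and WT TTC, and these did not differ by the exact test of the difference of pairs (difference -0.06, adjusted p = 1).

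Surf4 has 4 copies of GGGCGG, the GC box, in the 150 bases before its annotated start (GRCm38.p6 chr2:26933512-26933661, minus strand), shown because it is the only member past 2-fold in both pairs, with the boxes in capitals.
Surf4: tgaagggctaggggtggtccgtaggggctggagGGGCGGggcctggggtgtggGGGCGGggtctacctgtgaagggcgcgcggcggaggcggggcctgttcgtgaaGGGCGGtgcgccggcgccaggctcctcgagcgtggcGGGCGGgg
Searched on both strands over 250 bases before the start, GGGCGG was present in 47 of 73 member windows and in 32.7% of 32851 windows of all genes. TGACGTCA, the cAMP response element, was in 3 member windows (Ap2b1, Cltb and Cope) and 1.55% of all, and TGACGTGG in 3 (Arf1, Copb1 and Sec24d) and 0.563% of all. Of these, Cope was low in both Ltn1 KO libraries and Ap2b1, Arf1, Copb1 and Cltb were not called in either pair. The windows of all genes include genes outside the transcripts measured here, and the shares among measured genes alone were not taken. The counts of member windows therefore do not show that a motif is particular to these genes. A match of letters is a description of the window only.

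The p24 proteins TMED4 and TMED9 are membrane receptors that shuttle between ER and Golgi. Tmed4 had 6.73 RPM for KO SC against 11.9 RPM for WT SC, and 10.4 RPM for KO TTC against 27.4 RPM for WT TTC. Tmed9 had 15.7 RPM for KO SC against 24.8 RPM for WT SC, and 20.5 RPM for KO TTC against 37.0 RPM for WT TTC. Both genes had their highest level in WT TTC and their lowest in KO SC, as did Surf4. In the TTC pair the fall passed the exact test for Tmed4 (log2 difference -1.32, adjusted p = 0.00136) and Tmed9 (-0.82, adjusted p = 0.0240), and in the SC pair it did not (-0.74 and -0.63, adjusted p = 0.314 and 0.191). Tmed10, which forms p24 complexes with other TMED proteins, had 8.98 RPM for KO SC and 9.54 RPM for WT SC, and 13.7 RPM for KO TTC and 11.6 RPM for WT TTC. Its log2 differences were -0.08 and 0.22, so the low values were not shared by every p24 gene at this depth.

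Summed over its 9 genes, the receptor group had 39.7 RPM for KO SC against 62.0 RPM for WT SC, and 59.6 RPM for KO TTC against 110 RPM for WT TTC. Exact Poisson 95% intervals of these sums were 32.5 to 48.0, 51.8 to 73.6, 52.0 to 68.1 and 93.9 to 129 RPM in the same order of libraries. The Ltn1 KO library was below the WT library of its pair without overlap of the intervals in both pairs. The sums include Surf4, Tmed4 and Tmed9, already described as low, and were not taken without them. They therefore do not show a fall of the whole group. Tmed3 ran opposite, at 5 and 0 reads in the SC pair and 9 and 0 in the TTC pair (Ltn1 KO first). Tmed2 and Tmed7 were below WT in both pairs, and none of these 3 genes was called. Marker genes of glia were, like the receptor sums, lowest in KO SC and highest in WT TTC. Astrocyte markers (6 of 7 measured, none at 0 in all libraries) summed to 89.8 RPM for KO SC against 149 RPM for WT SC, and 128 RPM for KO TTC against 180 RPM for WT TTC. Oligodendrocyte lineage markers (6 of 9 measured, none at 0 in all) summed to 10.47 RPM for KO SC against 34.3 RPM for WT SC, and 36.1 RPM for KO TTC against 65.7 RPM for WT TTC. Their part in the levels of Surf4, Tmed4, Tmed9 and Cope and Ap2a1, which were also lowest in KO SC and highest in WT TTC, was not tested. In cultures measured as a whole, fewer cells of a type and fewer footprints in each cell cannot be told apart.

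**Figure D1:**
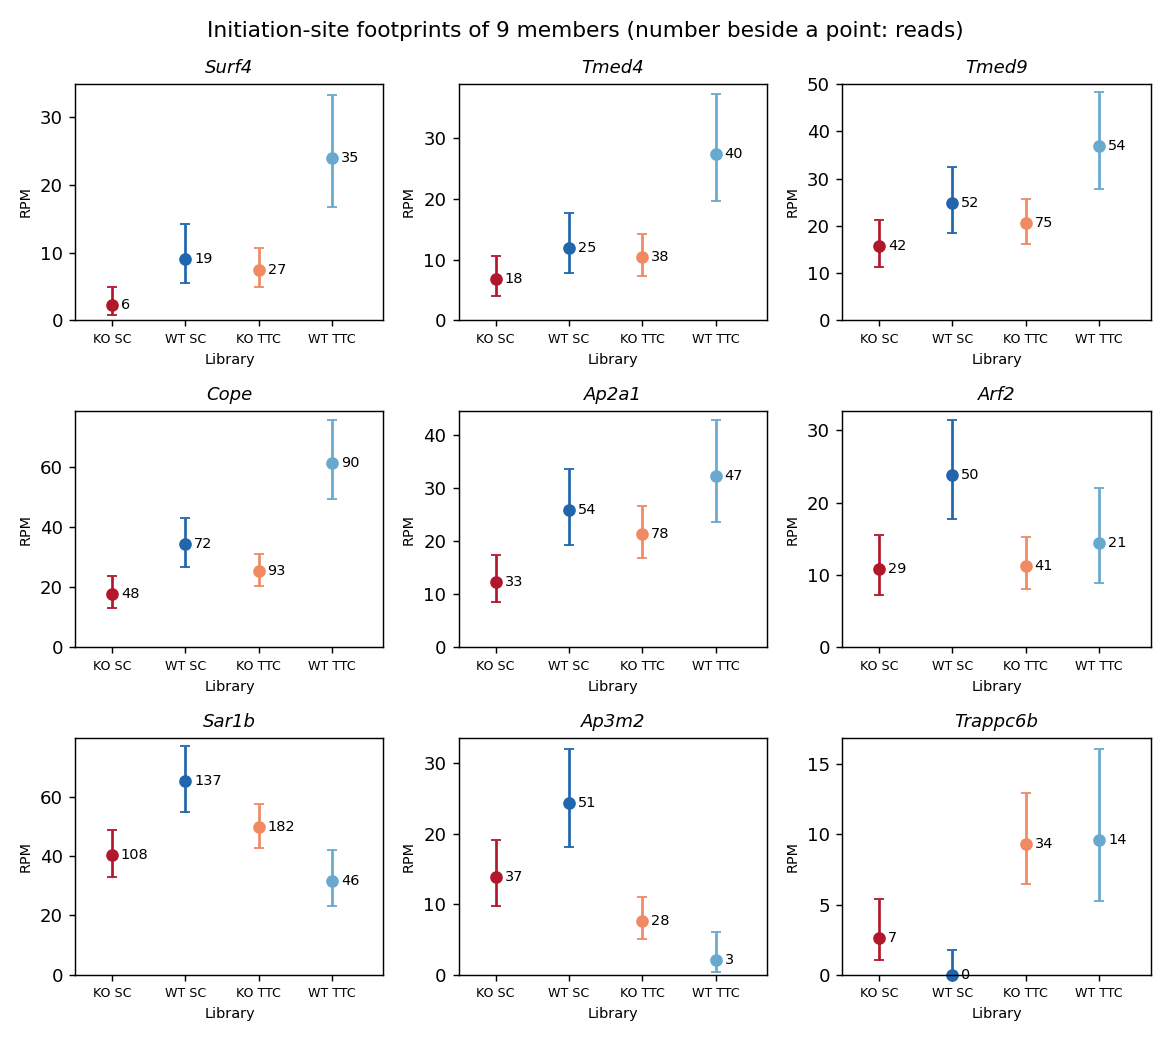
Footprints at the initiation site in RPM (vertical axis, from 0) for 9 members in the KO SC, WT SC, KO TTC and WT TTC libraries, with exact Poisson 95% intervals as bars and reads beside each point. Surf4, Tmed4, Tmed9, Cope and Ap2a1 were lower in the Ltn1 KO library of both pairs, whereas Sar1b and Ap3m2 had KO SC below WT SC but KO TTC above WT TTC.

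Among COPI genes, Cope, which encodes the epsilon subunit of coatomer, was lower in the Ltn1 KO library of both pairs. It had 17.96 RPM for KO SC against 34.3 RPM for WT SC, and 25.4 RPM for KO TTC against 61.6 RPM for WT TTC. WT TTC stood highest and KO SC lowest. The differences were 1.91-fold lower in the SC pair and 2.42-fold lower in the TTC pair, and both passed the exact test (adjusted p = 0.0114 and 1.26e-06). No other coatomer gene was called in either pair. Copz1, the zeta subunit and the most abundant of the group, had 41.2 RPM for KO SC and 35.8 RPM for WT SC, and 32.6 RPM for KO TTC and 34.9 RPM for WT TTC. Of the 6 COPI genes with a mean of at least 5 RPM, KO SC was below WT SC for 3 and above it for 3, and the same counts held for KO TTC against WT TTC (2 below and 4 above in both pairs with median-of-ratios factors), so Cope stood apart from subunits of its own complex. Copb1, for the beta subunit, was the highest of them in difference, at 8.23 RPM for KO SC against 4.29 RPM for WT SC and 6.29 RPM for KO TTC against 2.74 RPM for WT TTC, which passed no test (adjusted p = 0.39 and 0.45, exact test).

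Both paralogues of the COPII GTPase were well covered, and they differed from each other between libraries. Sar1b had 40.4 RPM for KO SC against 65.4 RPM for WT SC, and 49.8 RPM for KO TTC against 31.5 RPM for WT TTC. Its extremes were both WT libraries, with WT SC highest and WT TTC lowest. On the log2 scale KO SC differed from WT SC by -0.68 (adjusted p = 0.00572) and KO TTC from WT TTC by 0.64 (adjusted p = 0.0640), and the exact test of the difference of pairs was passed (-1.32, adjusted p = 0.000648). Sar1a had 40.4 RPM for KO SC, 51.0 RPM for WT SC, 48.1 RPM for KO TTC and 49.99 RPM for WT TTC, with no call in any comparison. As a share of the reads of both paralogues, Sar1a held 50% in KO SC against 43.9% in WT SC, and 49.2% in KO TTC against 61.3% in WT TTC. The exact binomial 95% interval in WT TTC, 52.0% to 70.1%, lay above that in WT SC, 37.5% to 50.3%. Sec23a held 81.5% of the reads of the SEC23 paralogues in KO SC against 80.5% in WT SC, and 75.8% in KO TTC against 64.0% in WT TTC. The footprints of near-identical copies may have been divided by the authors' alignment, so the split between SAR1 or ARF paralogues is uncertain.

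The cage gene Sec13 was lower in SC than in TTC within Ltn1 KO. It had 11.97 RPM for KO SC against 22.4 RPM for KO TTC (adjusted p = 0.0195, exact test), and 8.11 RPM for WT SC against 15.1 RPM for WT TTC (adjusted p = 0.281). Between genotypes it differed by 0.51 and 0.54 log2 units upward in KO without a call. Sec23a, Sec23b and Sec31a, of the inner and outer coat, made no call in any comparison, and the 4 Sec24 genes, Sec16a and Sec23ip were all under the mean of 5 RPM. All 6 COPII genes above that level had KO SC below KO TTC, as did 61.8% of all transcripts at that level. With median-of-ratios factors or equal site sums it was 5 of 6, with 50.7% and 52.6% of all. Only Sec13 passed the test, while 4 of the 6 had KO TTC above WT TTC, with 45.5% of all. Summed over 12 genes, COPII had 156 RPM for KO SC against 208 RPM for WT SC, and 192 RPM for KO TTC against 170 RPM for WT TTC. The sums of KO SC (142 to 172 RPM) and WT SC (189 to 228 RPM) had Poisson intervals that did not overlap, and those of KO TTC (178 to 207 RPM) and WT TTC (149 to 192 RPM) did. Without Sar1b the other 11 genes summed to 116 RPM for KO SC against 143 RPM for WT SC, and 143 RPM for KO TTC against 138 RPM for WT TTC, so the TTC pair was then nearly level.

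**Figure D2:**
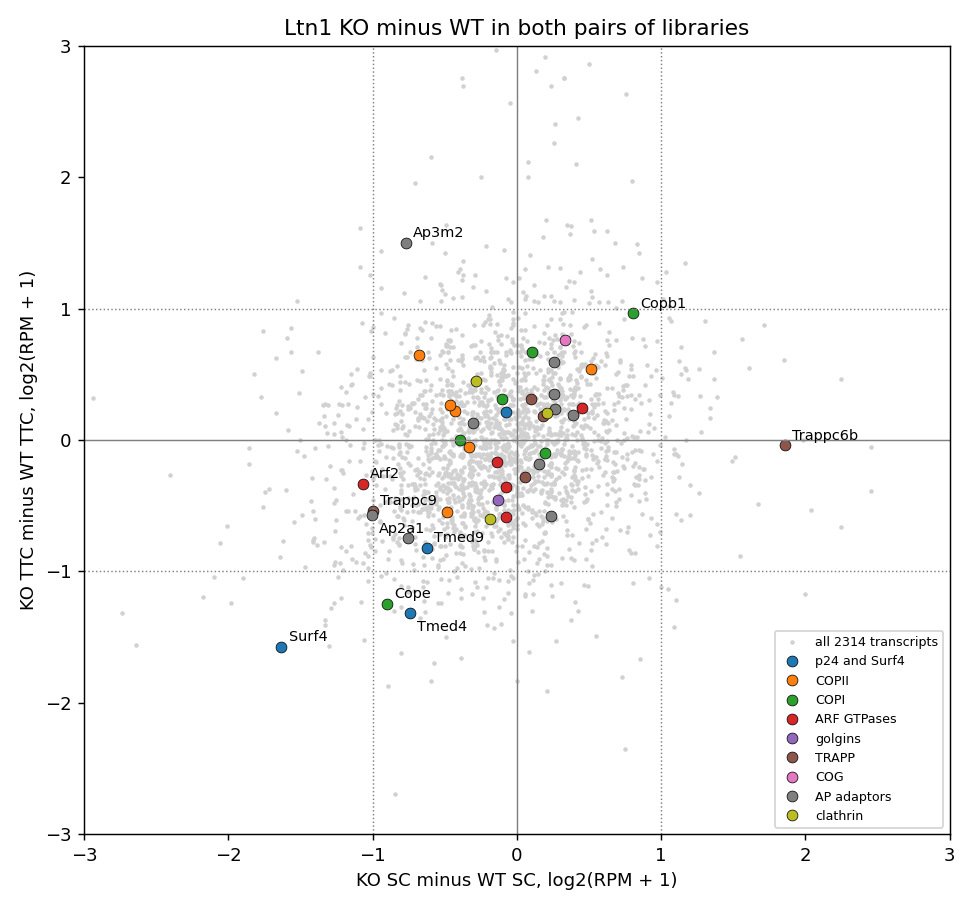
Differences in log2(RPM + 1), KO SC minus WT SC on the horizontal axis and KO TTC minus WT TTC on the vertical axis, for the 41 members at 5 RPM or more coloured by role and for all 2314 transcripts of that mean level in grey, with dotted lines at 2-fold. Only Surf4 lies past both lines among the members, and 40 grey transcripts are beyond the axes, which end at 3.

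ARF genes recruit COPI and AP coats to Golgi membranes. Arf2 had 10.8 RPM for KO SC against 23.9 RPM for WT SC, and 11.2 RPM for KO TTC against 14.4 RPM for WT TTC. WT SC was the highest library and the others lay close together. The SC pair passed both 2-fold and the exact test (log2 difference -1.07, adjusted p = 0.0137), and the TTC pair neither (-0.33, adjusted p = 0.748). The difference between the pairs was not called (adjusted p = 0.564, exact test). Arf4 had 28.1 RPM for KO SC against 17.5 RPM for KO TTC, the only member called higher in that comparison (adjusted p = 0.0395, exact test), and 29.6 RPM for WT SC against 26.7 RPM for WT TTC. KO TTC was the low library of the gene. Arf3, the most abundant ARF gene, had 57.6 RPM for KO SC, 42.0 RPM for WT SC, 44.0 RPM for KO TTC and 37.0 RPM for WT TTC, without a call.

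Among tethers, the TRAPP gene Trappc6b separated the codes rather than the genotypes. It had 2.62 RPM for KO SC against 9.30 RPM for KO TTC (7 and 34 reads), and 0 RPM for WT SC against 9.59 RPM for WT TTC (0 and 14 reads). Both SC libraries were low and both TTC libraries high. The SC library was 3.55-fold lower than the TTC library within KO (adjusted p = 0.00850, exact test). Within WT it was 6.70-fold lower when WT SC is set to 3 reads (adjusted p = 0.000180, exact test on the reads). For KO SC against WT SC it counted as past 2-fold higher on the log2(RPM + 1) scale. With WT SC set to 3 reads it was 1.83-fold higher, and the exact test did not call it (adjusted p = 0.152). Trappc12 had 0.374 RPM for KO SC against 4.38 RPM for KO TTC (1 and 16 reads, adjusted p = 0.0178, exact test) and 2.86 RPM for WT SC against 3.42 RPM for WT TTC, so only KO SC was low. Trappc3, the most abundant TRAPP gene, had 42.3 RPM for KO SC, 40.6 RPM for WT SC, 33.1 RPM for KO TTC and 40.4 RPM for WT TTC. Summed over 10 genes TRAPP had 83.8 RPM for KO SC against 86.8 RPM for WT SC, and 89.7 RPM for KO TTC against 93.1 RPM for WT TTC, within each other's intervals.

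COG, the tether of vesicles moving within the Golgi, was close to the limit of detection. Cog8 had 15 reads (5.61 RPM) in KO SC against 0 in WT SC. With WT SC set to 3 reads it was 3.92-fold higher, and the exact test on the reads called it (adjusted p = 0.00742). In the TTC pair Cog8 had 3.01 RPM for KO TTC and 1.37 RPM for WT TTC (11 and 2 reads, adjusted p = 0.721, exact test). Cog4, the most abundant COG gene, had 7.48 RPM for KO SC, 5.72 RPM for WT SC, 7.66 RPM for KO TTC and 4.11 RPM for WT TTC. KO was above WT in both pairs for Cog4, by 0.33 and 0.76 log2 units, and neither was called. Sec22a, of the SEC22 family, had 0 reads in KO SC against 22 in KO TTC (adjusted p = 0.000207, exact test). This was 5.36-fold lower with KO SC set to 3 reads. Within WT it had 0 reads in WT SC against 3 in WT TTC. Sec22b, the ER to Golgi SNARE, had 4.86 RPM for KO SC, 3.34 RPM for WT SC, 5.74 RPM for KO TTC and 3.42 RPM for WT TTC. Golga7b had 48.3 RPM for KO SC, 53.0 RPM for WT SC, 39.7 RPM for KO TTC and 54.8 RPM for WT TTC, with no call.

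Of the adaptor genes, Ap2a1 and Ap3m2 changed. Ap2a1 encodes an alpha subunit of AP2, the adaptor of endocytosis, and had 12.3 RPM for KO SC against 25.8 RPM for WT SC, and 21.3 RPM for KO TTC against 32.2 RPM for WT TTC. KO was lower in both pairs, and KO SC lowest of all. The SC pair was at the 2-fold line and passed the exact test (log2 difference -1.004, adjusted p = 0.0165), and the TTC pair did not pass (-0.57, adjusted p = 0.183). The other AP2 genes above the mean of 5 RPM did not follow it. Ap2b1 had 51.6 RPM for KO SC and 39.1 RPM for WT SC, and 43.2 RPM for KO TTC and 37.7 RPM for WT TTC. Ap2m1 had 47.9 RPM for KO SC and 42.9 RPM for WT SC, and 36.7 RPM for KO TTC and 41.8 RPM for WT TTC. None of these AP2 differences outside Ap2a1 passed the test.

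Ap3m2 encodes the mu subunit of the neuronal form of AP3, which sorts cargo from endosomes to synaptic vesicles and lysosome-related organelles. It had 13.8 RPM for KO SC against 24.3 RPM for WT SC (37 and 51 reads), and 7.66 RPM for KO TTC against 2.05 RPM for WT TTC (28 and 3 reads). Both SC libraries were above both TTC libraries. WT SC was 11.8-fold higher than WT TTC (adjusted p = 9.29e-07, exact test), and KO SC 1.81-fold higher than KO TTC (adjusted p = 0.110). KO SC differed from WT SC by -0.77 and KO TTC from WT TTC by 1.503 on the log2 scale, and the exact test of their difference was passed (-2.27, adjusted p = 0.0281). Its partner Ap3b2, the neuronal beta subunit, had 12.7 RPM for KO SC, 10.5 RPM for WT SC, 14.0 RPM for KO TTC and 8.90 RPM for WT TTC, without a call. Ap1s1, of the Golgi adaptor AP1 and the most abundant AP gene, had 53.5 RPM for KO SC against 44.4 RPM for WT SC, and 46.2 RPM for KO TTC against 39.0 RPM for WT TTC, also uncalled.

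The clathrin light chain genes Clta and Cltb had the highest mean levels of all members. Clta, light chain A, had 167 RPM for KO SC against 144 RPM for WT SC, and 147 RPM for KO TTC against 127 RPM for WT TTC. Its KO minus WT differences were 0.21 and 0.20, and with 186 reads or more in each library neither was called (adjusted p = 0.258 and 0.379, exact test). Cltb, light chain B, had 43.4 RPM for KO SC against 69.5 RPM for KO TTC, a fall that passed the exact test (adjusted p = 0.000414), and 53.0 RPM for WT SC and 50.7 RPM for WT TTC, which did not differ by it (adjusted p = 0.998). Of the reads of both light chains, Clta took 79.4% in KO SC (exact 95% interval 75.8% to 82.6%) against 67.9% in KO TTC (64.5% to 71.1%). The share was 73.1% in WT SC (68.6% to 77.3%) and 71.5% in WT TTC (65.6% to 76.9%), between those of the KO libraries. The heavy chain Cltc had 25.4 RPM for KO SC, 29.1 RPM for WT SC, 20.0 RPM for KO TTC and 30.8 RPM for WT TTC.

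**Figure D3:**
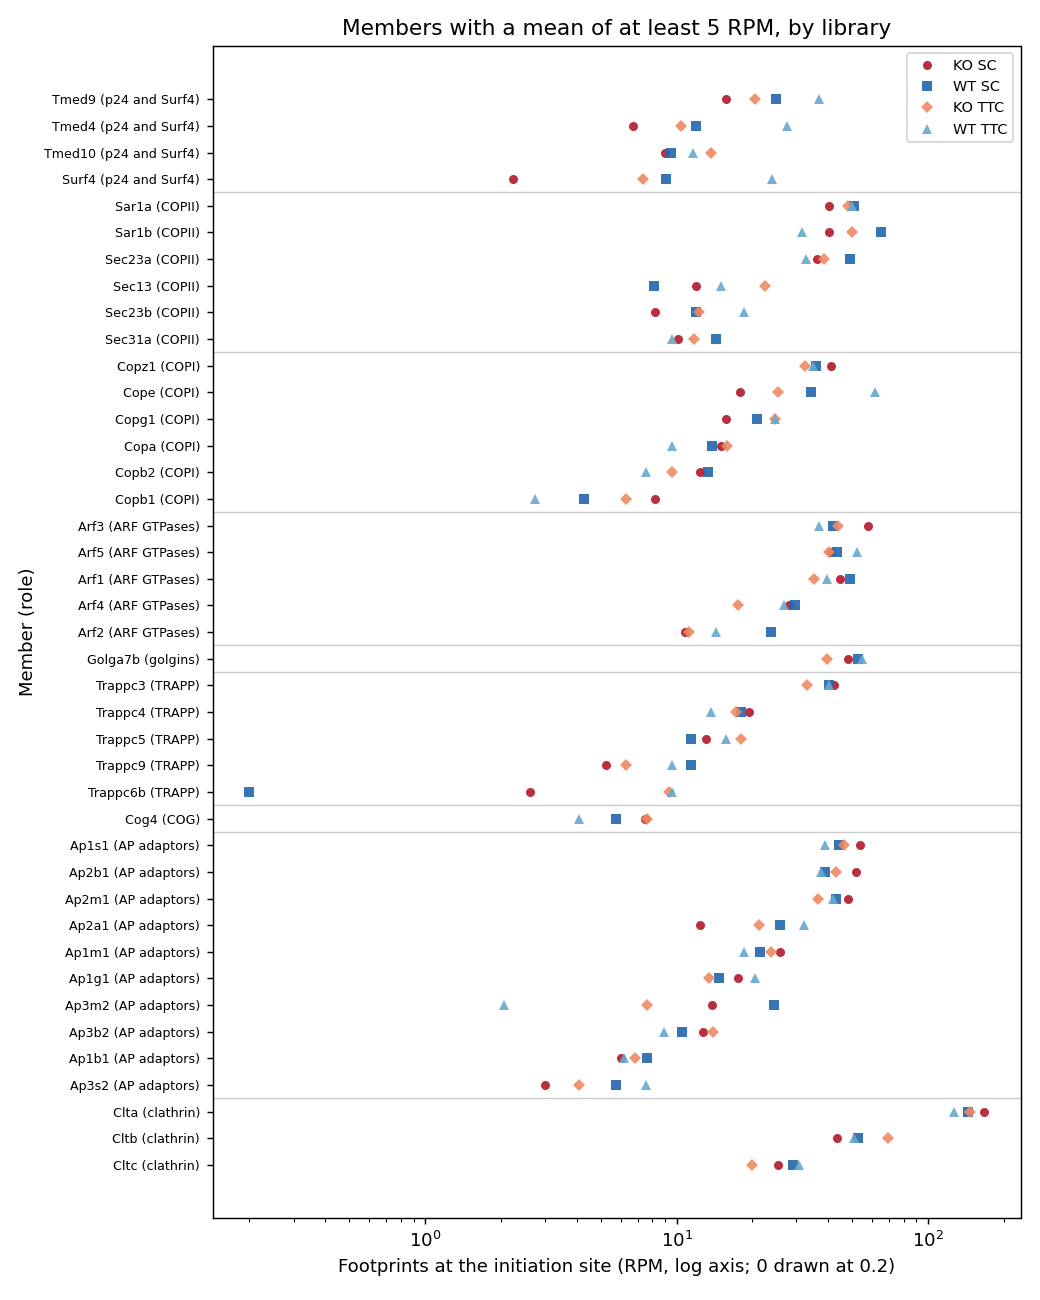
Footprints at the initiation site in RPM on a log axis for the 41 members with a mean of at least 5 RPM, grouped by role and sorted by mean, with a symbol for each of the KO SC, WT SC, KO TTC and WT TTC libraries and a value of 0 drawn at 0.2. Surf4, Ap3m2 and Trappc6b show the widest spread among libraries, and Clta the highest level.

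Counts of members called were set beside the share of all transcripts called. For KO SC minus WT SC, 3 of 41 members were past 2-fold lower (Ap2a1, Arf2, Surf4), with 6.83% of all transcripts, and 1 higher (Trappc6b), with 2.98%. The exact test on reads called 5 of 64 members with reads lower in KO SC (those 3, Cope and Sar1b), with 4.74% of all, and 1 higher (Cog8), with 2.63%. For KO TTC minus WT TTC, 3 of 41 were past 2-fold lower (Cope, Surf4, Tmed4), with 4.67% of all, and 1 higher (Ap3m2), with 5.27%. By the exact test 4 of 69 were lower in KO TTC (Cope, Surf4, Tmed4, Tmed9), with 4.41% of all, and 0 higher, with 3.14%. Without adjustment, 3 members (Sar1b, Cltb and Ap3m2) were higher in that comparison at p under 0.05. As shares of the members tested, the 2-fold calls were 7.32% lower and 2.44% higher in each pair. In the SC pair these were close to the background of 6.83% and 2.98%. In the TTC pair the background was 4.67% lower and 5.27% higher. The members' share there was above it for lower and below it for higher, resting on 3 members and 1 member.

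Between codes, 2 of 41 members were past 2-fold lower in KO SC than in KO TTC (Surf4, Trappc6b), with 9.64% of all transcripts, and 0 higher, with 3.15%, a direction in which 6 members had an unadjusted p under 0.05 in the exact test. The exact test called 6 of 71 lower (Cltb, Sec13, Sec22a, Surf4, Trappc12, Trappc6b), with 10.9% of all, and 1 higher (Arf4), with 5.71%. In WT SC against WT TTC, 3 of 41 were past 2-fold lower (Surf4, Tmed4, Trappc6b), with 9.51% of all, and 2 higher (Ap3m2, Sar1b), with 6.91%. By the exact test 4 of 67 were lower (those 3 and Cope), with 7.02% of all, and 2 higher (Ap3m2 and Sar1b), with 3.82%. Surf4 was the one member called lower in all 4 comparisons, and the 4 comparisons share libraries.

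Small differences between genotypes ran in both directions among the members, as among all transcripts. Lower in KO in both pairs by any amount were 16 of 41 members (39.0%), with 34.9% of all transcripts, and higher in both were 12 of 41 (29.3%), with 22.6%. With median-of-ratios factors, which shift all transcripts up by 0.13 in KO SC minus WT SC and by 0.05 in KO TTC minus WT TTC, these counts turned to 11 lower and 15 higher. All transcripts moved too, from 58.0% to 48.2% lower in KO SC minus WT SC. In KO TTC minus WT TTC they went from 54.1% to 49.4% lower. Their share in both pairs at once was not taken with the factors. The members' median log2 difference was -0.11 in KO SC minus WT SC, the same as the -0.11 of all transcripts. It was -0.0018 in KO TTC minus WT TTC, against -0.05 for all. For the codes it was -0.08 in KO SC minus KO TTC against -0.17 for all, and 0.05 in WT SC minus WT TTC against -0.10 for all. In this last comparison 16 of 41 members were lower and 25 higher, or 61.0% higher, against 44.0% higher of all transcripts. The difference of pairs was called in 2 of 55 members, Ap3m2 and Sar1b, with 5.18% of all. Summed over all 74 members the libraries had 1140 RPM for KO SC against 1223 RPM for WT SC, and 1146 RPM for KO TTC against 1192 RPM for WT TTC.

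**Figure D4:**
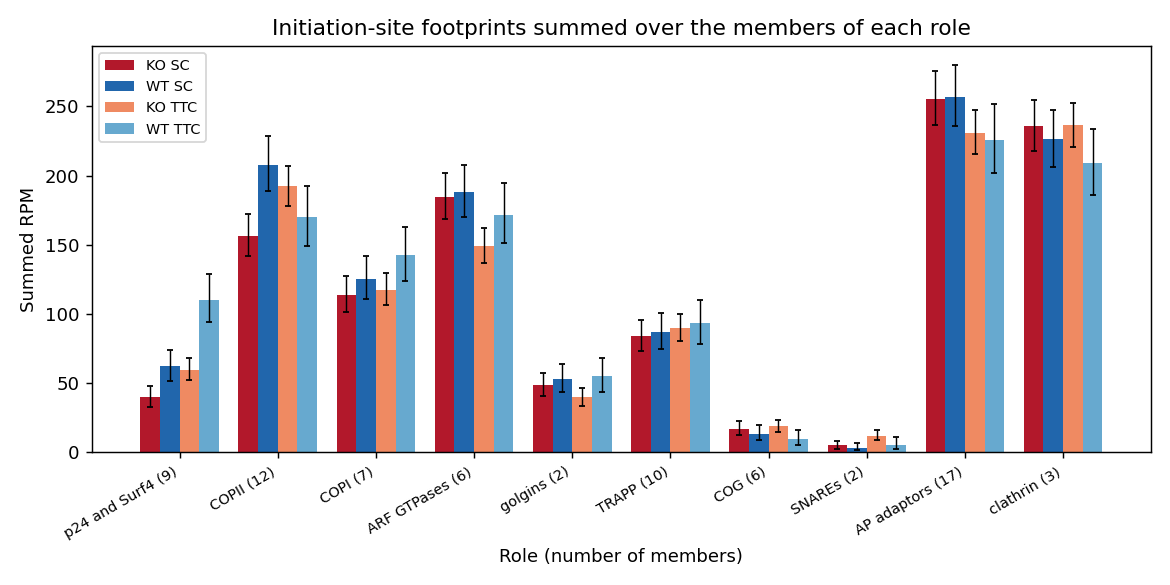
RPM summed over the members of each role (number of members in brackets) in the KO SC, WT SC, KO TTC and WT TTC libraries, as bars from 0 with exact Poisson 95% intervals. The p24 and Surf4 group is at 39.7 RPM for KO SC against 62.0 RPM for WT SC and at 59.6 RPM for KO TTC against 110 RPM for WT TTC, while the 4 intervals of the clathrin and of the TRAPP group overlap.

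An additive fit of genotype and code over the 4 libraries with limma, with 1 residual degree of freedom, called 0 of 2314 transcripts for genotype and 1 for code, with no member called in either. At an unadjusted p under 0.05, genotype had 167 transcripts lower and 86 higher, of which 6 lower and 0 higher were members. The 6 were Surf4, Cope, Tmed4, Ap2a1, Tmed9 and Arf2. Surf4 had a genotype difference of -1.60 ± 0.36 (SE) and Cope one of -1.07 ± 0.24, both with an adjusted p of 0.347. For code 5 members were lower (Tmed4, Surf4, Sec13, Cope, Trappc6b) and 1 higher (Ap3m2) at that unadjusted level, with 321 lower and 135 higher of all. edgeR's quasi-likelihood fit on recovered reads called 0 for both terms. Reads varied between libraries by more than counting error, with a mean Pearson statistic of 3.02 to 3.96 over members with at least 20 reads, where counting error alone gives a mean near 1.

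Further lists of other genes of the route were read beside the members. Of 71 ER-Golgi trafficking genes outside the rule (KDEL receptors, lectins, NSF and SNAP proteins, Rab1 and Rab2 genes and others), 54 were measured and 27 had a mean of at least 5 RPM. Past 2-fold, 2 were lower and 0 higher for KO SC minus WT SC, and 0 lower and 1 higher for KO TTC minus WT TTC, beside the shares of all transcripts given above. The exact test on reads called 2 of the 54 lower and 0 higher for KO SC minus WT SC, and 5 lower and 4 higher for KO TTC minus WT TTC, where 4.74%, 2.63%, 4.41% and 3.14% of all transcripts with reads were called. Of the 54, 10 had 0 reads in both libraries of the SC pair and 1 in both of the TTC pair. The shares of all transcripts leave such genes out. Of the 27, the exact test called Kdelr1, Napa and Napg lower and Tfg higher in KO TTC. Their median differences were -0.03 and -0.14, against -0.11 and -0.05 for all transcripts. Of 41 clathrin accessory genes, 36 were measured and 12 reached the mean, with 0 past 2-fold in either direction in either pair and medians of 0.15 and -0.16. The exact test called 1 of the 36 lower for KO SC minus WT SC and 2 lower for KO TTC minus WT TTC, one of them Amph, and 0 higher in either. Of the 36, 4 had 0 reads in both libraries of the SC pair and 3 in both of the TTC pair. No gene of either list was called in the same direction in both pairs. Between codes, the trafficking list had 3 past 2-fold lower and 0 higher for KO SC minus KO TTC, and 2 and 2 for WT SC minus WT TTC. The clathrin accessory list had 1 lower and 0 higher, then 2 lower and 0 higher, in the same order. Shares of all transcripts for these comparisons are given above. Gga2, of the clathrin accessory list, had 0 reads in both SC libraries, 46 in KO TTC and 24 in WT TTC. These genes are named after their values were seen. The 3 past 2-fold in a KO minus WT pair are given in full. Napb, a SNAP protein that recycles SNAREs in neurons, had 38.2 RPM for KO SC against 81.1 RPM for WT SC, and 80.7 RPM for KO TTC against 84.2 RPM for WT TTC. Vapb, an ER membrane contact protein, had 11.2 RPM for KO SC against 29.6 RPM for WT SC, and 36.7 RPM for KO TTC against 45.2 RPM for WT TTC. Tfg, which organises COPII exit sites, had 16.1 RPM for KO SC against 12.4 RPM for WT SC, and 19.1 RPM for KO TTC against 5.48 RPM for WT TTC. Napb and Vapb were thus low in KO SC, and Tfg was low in WT TTC.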

How the data were processed

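The deposited values are RPM at initiation sites, made by the authors from ribosome footprints; the submitters' notes name Bowtie, SAMtools and bedtools and the build GRCm38/mm10, while versions, the window counted and the annotation are not given in the sources used here. Every deposited RPM (100%) could be divided by the worth of 1 read, within 1e-06, which recovered whole reads. Symbols were joined by transcript identifier from the study's Dataset S1 (38 identifiers mended), whose column of KO minus WT comparison values was not used. Differences were taken as log2(RPM + 1), which understates changes of low genes, at a mean of at least 5 RPM. A call was a 2-fold difference. Alternatively, reads were compared by a two-sided exact conditional binomial test given library totals, and the pairs by an exact test of their odds ratio at 20 reads or more, with Benjamini-Hochberg adjustment over all transcripts at 0.05. The binomial test called 254 transcripts lower and 141 higher in KO SC against WT SC, and 240 lower and 171 higher in KO TTC against WT TTC. Genotype and code were fitted with limma 3.58.1, and with edgeR 4.0.16 (0 genes called for either term) on the recovered reads. The work used scipy 1.17.1, pandas 2.3.3, numpy 2.4.6 and matplotlib 3.10.9 under Python 3.11.15, with R 4.3.3. Each test was run on reads simulated with counting error only. That run cannot show how the tests behave at the wider spread between these libraries. Other alternatives were the filter, the pseudocount, the scaling of the libraries and the exchange of RNAi labels.

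Members, lists, tests and rules were chosen with earlier results of these data known. Named were members past 2-fold or passing an exact test in any comparison, the most abundant member of each role, members with 0 reads throughout, Ltn1 and Ttc3, and listed genes called in both pairs. Copb1, Tmed10, Ap2b1, Ap2m1, Ap3b2, Cltc and other members named beyond this were chosen after their values were seen.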

Additional observations from a re-analysis of the deposited data

Results flagged for a closer look

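The KO minus WT difference was not alike in both pairs for 2 members, by the exact test of the difference of pairs. For Sar1b the SC pair less the TTC pair was -1.32 on the log2(RPM + 1) scale (adjusted p = 0.000648), with 40.4 RPM for KO SC against 65.4 RPM for WT SC and 49.8 RPM for KO TTC against 31.5 RPM for WT TTC. For Ap3m2 it was -2.27 (adjusted p = 0.0281), with 13.8 RPM for KO SC against 24.3 RPM for WT SC and 7.66 RPM for KO TTC against 2.05 RPM for WT TTC. The value of Ap3m2 rests on 3 reads in WT TTC. Both were called again with median-of-ratios factors as offsets. Each pair is 1 library against 1, and the test covers counting error only.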

How the results depend on the processing

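Counts of members past 2-fold moved with the settings. With no filter on low values, 6 of 74 members were lower and 4 higher for KO SC minus WT SC. For KO TTC minus WT TTC these were 4 and 4, and for KO SC minus KO TTC 6 and 1. For WT SC minus WT TTC they were 9 and 5. In the report the counts were 3 and 1, 3 and 1, 2 and 0, and 3 and 2. Of all 6352 transcripts without the filter, 579 were lower and 536 higher for KO SC minus WT SC. In the same order, the other comparisons had 507 and 773, 791 and 464, and 852 and 785. At a mean of 10 RPM, 0 were higher in KO SC than WT SC and 1 lower in KO SC than KO TTC. With a pseudocount of 3 RPM, KO SC minus WT SC had 1 lower and 0 higher, KO SC minus KO TTC 1 lower and WT SC minus WT TTC 1 higher, and with 0.5 RPM KO TTC minus WT TTC had 2 higher. With median-of-ratios factors 1 was lower for KO SC minus WT SC. The exact test in place of 2-fold gave 5 lower there, 0 higher for KO TTC minus WT TTC, and 6 lower and 1 higher for KO SC minus KO TTC. The other counts stayed within 1.5 times. Counts over all transcripts were not taken at a mean of 10 RPM or with the other pseudocounts. Of 15 differences of single members past 2-fold, 5 fell short with a pseudocount of 3 RPM, 2 with median-of-ratios factors (Ap2a1 and Arf2) and 1 with equal site sums (Ap2a1), and none turned in sign there. Surf4 stayed past 2-fold in both KO minus WT pairs under these 3 settings. The cause of these changes was not tested beyond what each setting does.

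Scaling moved the median of all transcripts up by as much as 0.16 (KO SC minus KO TTC, median-of-ratios factors). The members' median there turned to 0.085 with these factors and to 0.057 with libraries of equal site sums, that for KO SC minus WT SC turned to 0.024 with the factors, and that for WT SC minus WT TTC was 0.15 with equal sums; a move under 0.1 that kept or lost a sign was counted as none. With the factors, all transcripts past 2-fold were 117 lower and 98 higher for KO SC minus WT SC, against 158 and 69 with RPM as deposited, and 150 lower and 114 higher for KO SC minus KO TTC, against 223 and 73.

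Exchanging the RNAi labels as the codes spell them turns the SC minus TTC differences by construction: Ap3m2 -3.05, Sar1b -1.03, Tmed4 1.14 and Trappc6b 3.40 within WT, Surf4 1.31 within WT and 1.37 within KO, Trappc6b 1.51 within KO, medians of 0.079 within KO and -0.053 within WT, and members past 2-fold within KO 0 lower and 2 higher. KO minus WT values do not change.

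limma without the filter called 64 transcripts for genotype, with 2 members (Surf4, Cope), and 286 for code, with 3 members. A pseudocount of 3 RPM gave 8 for genotype and 145 for code, with 2 members for code. edgeR gave 0 for both with TMM scaling and with deposited totals. The additive fits compare genotypes within each code; the groups have 1 library each and no replicate numbers by which to pair them further. At 3 reads in WT TTC or 0 in WT SC, as for Ap3m2, Trappc6b and Cog8, the size of a difference is poorly fixed, and without replicates no difference here has been checked against the spread between cultures.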
